A study of Homo sapiens with 40 samples.

Results

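DHRS2, DHRS4-AS1, DHRS4 and DHRS4L2 are 4 genes at 14q11.2 that were followed here through RNA-seq, ChIP-seq and Hi-C of A549 cells with and without SETDB1. They are 4 of the 62486 gene rows of the count table, matched by gene identifier and symbol. DHRS2 was chosen because its RNA was low in control and high in knockout cells, so its RNA values are a description and carry no test. The other 3 were chosen by name and place, to ask whether neighbours of DHRS2 follow it. The chromatin data are the 163 peaks, of 614567 in all peak lists used here, that touch the stretch of chromosome 14 from 24.05 to 24.55 Mb on GRCh37 (hg19).

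DHRS2, DHRS4 and DHRS4L2 belong to the short-chain dehydrogenase/reductase (SDR) family, a large set of NAD(P)(H)-dependent enzymes that oxidise or reduce alcohols, carbonyls, steroids and retinoids. DHRS2, first described as Hep27, reduces dicarbonyl compounds and has been reported to bind MDM2. DHRS4 is a peroxisomal NADPH-dependent carbonyl and retinal reductase, DHRS4L2 is a close paralog that arose by duplication, and DHRS4L1 is a further copy classed as a pseudogene. DHRS4-AS1 is a long non-coding RNA transcribed from the start region of DHRS4 on the opposite strand, and it has been reported to repress genes of the cluster together with the histone methyltransferases EHMT2 (G9a) and EZH2. SETDB1 places H3K9me3, a mark of repressed chromatin.

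Both groups were cells of A549, a long established line from a human lung adenocarcinoma with a mutated K-RAS gene. Control (CT) cells were compared with cells in which SETDB1 had been disrupted by CRISPR/Cas9 with guide RNA cloned in the PX458 plasmid (KO). Whether the knockout cells were 1 clone or a pool, and whether replicates were separate cultures, is not given in the sources used here, so p-values measure only the spread between these samples. The 40 samples held 3 RNA-seq libraries per genotype and 2 libraries per genotype for each of 5 ChIP-seq targets and for Hi-C, beside inputs.

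RNA libraries held 18065062 to 48364919 counts. SETDB1 RNA fell from 38.6 ± 1.04 to 21.9 ± 1.32 CPM (SD, n = 3 each; CPM are counts scaled to TMM-corrected library size), and edgeR's quasi-likelihood test with Benjamini-Hochberg adjustment gave a p of 1.7e-12. All 5 epithelial markers examined (KRT8, KRT18, KRT7, EPCAM, CDH1) were at 1 CPM or more. Their summed level was 4391 to 4804 CPM in control and 10427 to 11194 CPM in knockout libraries. Nearly all of it was KRT8 (means 2271 CPM in control and 6594 CPM in knockout libraries), KRT18 (779 and 2583 CPM) and KRT7 (1549.5 and 1661.7 CPM). EPCAM was at 4.01 and 10.8 CPM. Fibroblast markers summed to 3.57 to 3.70 and 4.89 to 5.30 CPM, with COL1A2 and DCN at 0 in all 6 libraries. Most of the fibroblast sum was COL1A1 (means 3.10 CPM in control and 3.83 CPM in knockout libraries). Leukocyte markers summed to 5.56 to 6.02 and 4.32 to 5.75 CPM, with CD3E at 0. Nearly all of the leukocyte sum was CD14 (means 5.68 and 4.76 CPM). The endothelial pair VWF and CDH5 summed to 0.276 to 0.378 and 3.84 to 5.15 CPM, nearly all of it CDH5. The hepatocyte markers ALB, APOA1 and TTR were each under 1 CPM and summed to 0.055 to 0.085 and 0.325 to 0.742 CPM.

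The sequences just before the RefSeq starts of DHRS2, DHRS4 and DHRS4L2 are shown first, as a description. Which starts were in use in these cells was not tested. Any tie between these sequences and the RNA levels was not tested either. Each run is the 250 bases before the annotated start on GRCh38.p14, 5′ to 3′ on the plus strand, which is the strand of these 3 genes. Capitals mark every CG dinucleotide and every TATAAA. The windows are chr14:23629865-23630114 for DHRS2, chr14:23953520-23953769 for DHRS4 and chr14:23988679-23988928 for the third annotated start of DHRS4L2. These coordinates are on another build than the peaks and were not compared with them.
DHRS2: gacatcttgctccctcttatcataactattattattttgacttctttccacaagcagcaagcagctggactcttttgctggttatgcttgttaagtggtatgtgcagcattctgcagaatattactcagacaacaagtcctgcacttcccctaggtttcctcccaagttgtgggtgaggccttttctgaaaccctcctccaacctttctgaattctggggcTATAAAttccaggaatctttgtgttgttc
DHRS4: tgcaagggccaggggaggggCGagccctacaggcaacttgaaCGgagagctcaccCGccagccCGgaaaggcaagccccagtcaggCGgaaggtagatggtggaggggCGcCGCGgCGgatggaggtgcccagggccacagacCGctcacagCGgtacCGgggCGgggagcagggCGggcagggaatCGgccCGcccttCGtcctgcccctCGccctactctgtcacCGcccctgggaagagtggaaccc
DHRS4L2: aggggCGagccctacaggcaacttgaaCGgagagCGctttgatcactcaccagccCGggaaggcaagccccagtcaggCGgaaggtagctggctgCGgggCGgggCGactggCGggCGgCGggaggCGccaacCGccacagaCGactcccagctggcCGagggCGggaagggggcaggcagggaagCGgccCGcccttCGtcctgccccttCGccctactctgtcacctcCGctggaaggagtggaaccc

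The DHRS2 window held 0 CG dinucleotides and had a GC content of 43.2%, against a median of 11 CG and 58.0% GC over 35116 RefSeq windows of the same length. Windows without any CG made up 6.06% of them. DHRS2 had a TATAAA on the gene strand whose first base lies 29 bases before the start. That hexamer was present on the gene strand in 6.8% of all windows and on either strand (TATAAA or TTTATA) in 10.7%, and 402 of the 2127 windows without CG (18.9%) had it on the gene strand.

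The DHRS4 window held 19 CG at 70.8% GC, and the DHRS4L2 window shown held 21 CG at 70.4% GC. Both held GGGCGG, the core of a GC box, 4 times over the 2 strands (GGGCGG or CCGCCC), and 42.6% of all windows held it at least once. Each GGGCGG contains 1 of the CG counted. DHRS4 and this DHRS4L2 window were identical at 203 of 266 alignment columns (76.3%), and it is shown because it is the most similar of the 3 DHRS4L2 windows. The windows of the other 2 annotated DHRS4L2 starts were identical to DHRS4 at 48.6% and 51.1% of columns and held GGGCGG 1 time each. DHRS2 was identical to the windows of the other 3 genes at 40.6% to 45.9% of columns. DHRS4 was identical to the windows of DHRS4-AS1 at 44.8% and 46.3%, so low identity was not particular to DHRS2. Those 2 DHRS4L2 windows had 22 and 32 CG, and the 2 starts of DHRS4-AS1 had 11 and 8. None of the windows of the 4 genes held CCAAT on either strand (CCAAT or ATTGG), which 32.0% of all windows held, and only the DHRS2 window held TATAAA.

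DHRS2 (ENSG00000100867) was the gene of the cluster whose RNA differed widely between genotypes. Its counts were 49, 55 and 68 in the 3 control libraries and 8220, 18885 and 8322 in the 3 knockout libraries. In CPM these were 2.08, 3.04 and 2.34 in control and 359, 383 and 371 in knockout cells, with means of 2.48 ± 0.49 and 371 ± 12.2 (SD, n = 3 each). The genotypes lay far apart, and the lowest knockout library was 118 times the highest control library. The gene was therefore low but counted in every control library, not at 0. The fitted log2 fold change was 7.25 (SE 0.075), a 152-fold difference, which placed DHRS2 at rank 150 of 17767 genes ordered from the largest rise. In bulk RNA, more cells with the transcript and more transcript per cell cannot be told apart. The epithelial, fibroblast, endothelial and hepatocyte marker sums given above were also higher in every knockout library than in any control library, and their part in the DHRS2 difference was not tested.

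DHRS4-AS1 (ENSG00000215256), the antisense RNA, had 346, 210 and 348 counts in control and 330, 690 and 349 in knockout libraries. Its levels were 14.7, 11.6 and 12.0 CPM in control and 14.4, 14 and 15.6 CPM in knockout libraries. The first control library lay within the knockout range, so the genotypes overlapped. The means were 12.7 ± 1.70 and 14.7 ± 0.80 CPM (SD, n = 3 each). Knockout exceeded control by 0.19 on the log2 scale (SE 0.085), and the Benjamini-Hochberg adjusted p of edgeR's quasi-likelihood test was 0.055, so the difference did not pass the threshold of 0.05. Its 95% interval ran from 1.02 to 1.28-fold. Without the first control library the log2 fold change was 0.30, with an edgeR adjusted p of 0.0019, and without the second knockout library it was 0.23 (edgeR adjusted p 0.0499). Another 3 alternatives, in scaling, filter and replicate block, also passed (0.21 to 0.23). All remaining alternatives did not pass, with adjusted p of 0.069 to 0.24 in edgeR or DESeq2.

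DHRS4 (ENSG00000157326), the peroxisomal reductase, had 183, 120 and 210 counts in control and 143, 336 and 141 in knockout libraries. These were 7.77, 6.62 and 7.21 CPM in control and 6.24, 6.82 and 6.28 CPM in knockout libraries. The second knockout library lay above the lowest control library. The log2 fold change was -0.15 (SE 0.099) and did not pass (edgeR adjusted p 0.18), and the 95% interval of the fold ran from 0.787 to 1.03. DHRS4L2 (ENSG00000187630), the paralog, was at 8.03, 8.83 and 8.86 CPM in control and 8.38, 7.89 and 8.20 CPM in knockout libraries. These ranges overlapped too, and the log2 fold change was -0.08 (SE 0.090; edgeR adjusted p 0.46), with a 95% interval of 0.838 to 1.07-fold. The intervals of all 3 neighbours thus stayed within 1.28-fold of no difference, while over all 17767 genes tested 62.8% passed the threshold. The CPM of the genotypes overlapped for each of these 3 genes, and did not overlap for 65.8% of all genes.

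The pseudogene DHRS4L1 had too few reads for the test. Its 2 identifiers held 8, 3 and 11 and 2, 5 and 1 counts in control, and 2, 13 and 7 and 1, 2 and 2 counts in knockout libraries. DHRS4, DHRS4L2 and DHRS4L1 are near-identical copies, so reads could be split between them by the counting. The libraries were stranded, but the strand setting of the counting is not given in the sources used here, and reads of DHRS4 and of its antisense RNA cannot be told apart on that ground.

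**Figure D1:**
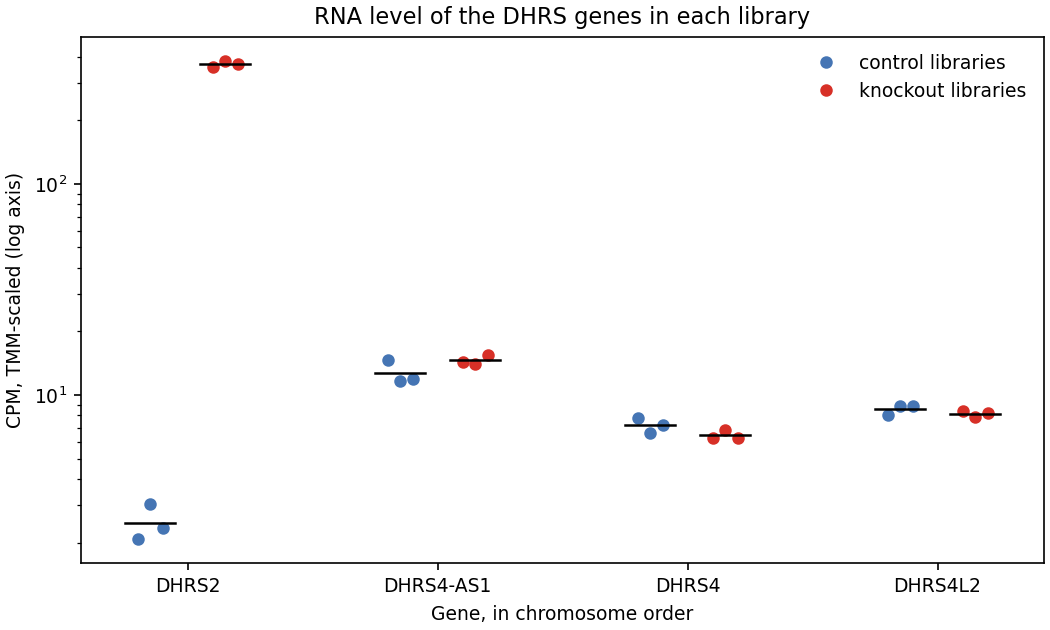
RNA level (CPM, log axis) of the 4 genes in the 3 control libraries (blue) and 3 knockout libraries (red), with a black bar at the mean of each genotype. DHRS2 runs from 2.08 to 3.04 CPM in control and from 359 to 383 CPM in knockout libraries, while the points of the other 3 genes overlap.

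To place the 4 genes among the rest, the genes with the most similar levels over the 6 libraries were listed by Euclidean distance of log2(CPM + 1), and this distance is a description. Nearest to DHRS2 was CEACAM6, a cell surface adhesion protein, at a distance of 1.84, with mean levels of 3.00 CPM in control and 753 CPM in knockout libraries. ZNF91, a KRAB zinc finger repressor of retrotransposons, followed at 2.72 (0.270 and 247 CPM), then ZNF850 at 3.10 (1.69 and 111 CPM), VCAN, which encodes the matrix proteoglycan versican, at 3.44 (10.9 and 205 CPM) and PXDN, which encodes peroxidasin, at 3.72 (2.93 and 83.5 CPM). The other 3 genes had closer neighbours, all with small differences between genotypes. DHRS4-AS1 was nearest to NME7, DIO2 and CASP6 (0.16 to 0.22), DHRS4 to TMEM17, PRPF18 and PUS3 (0.15 to 0.18), and DHRS4L2 to AMZ2P1, TRIM69 and TRMT44 (0.092 to 0.14).

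Genes on either side of the cluster were examined in RefSeq order to ask whether they followed DHRS2. Of 33 such genes (15 before DHRS2, 3 between DHRS2 and DHRS4-AS1, 15 after DHRS4L2), 25 had a count and 18 could be tested. Among these 18, 6 were higher and 6 lower in knockout cells and 6 did not pass edgeR's test, which is 33.3% in each direction against 32.8% higher and 30.0% lower over all genes tested. None of the 18 was at least 2-fold higher (9.86% of all genes) and 2 were at least 2-fold lower (4.85%). Their median log2 fold change was -0.16, against 0.0038 over all genes, and the largest rise was 0.49.

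Before DHRS2, ZFHX2, a zinc finger homeobox gene, was at 1.95, 1.60 and 2.34 CPM in control and 2.92, 2.84 and 2.67 CPM in knockout libraries. It rose by 0.49 on the log2 scale (SE 0.158; adjusted p 0.0093, edgeR). THTPA, a thiamine triphosphatase, rose by 0.34 (SE 0.104; edgeR adjusted p 0.0065), from 4.88 to 5.85 CPM in control to 6.46 to 6.86 CPM in knockout libraries. AP1G2, an adaptor subunit of vesicle traffic, rose by 0.30 (SE 0.057; edgeR adjusted p 4.6e-05), from 28.8 to 30.4 CPM to 34.6 to 36.9 CPM. Without the second control library ZFHX2 was at 0.38 (edgeR adjusted p 0.053), and without the third THTPA was at 0.26 (edgeR adjusted p 0.060), so both then missed the threshold. AP1G2-AS1 had a log2 fold change of -0.51 (SE 0.307), which did not pass (edgeR adjusted p 0.15). JPH4, a junctophilin, was not tested and had 4, 5 and 8 counts in control and 13, 19 and 10 in knockout libraries. The 3 loci between DHRS2 and DHRS4-AS1 (BRD7P1, RN7SKP205, LINC00596) were too low to test.

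After DHRS4L2, CARMIL3 (ENSG00000186648), a regulator of actin capping protein, had 99, 66 and 93 counts in control and 12, 49 and 17 in knockout libraries. It fell from 3.68 ± 0.51 to 0.759 ± 0.24 CPM (SD, n = 3 each), with no overlap between genotypes. Its log2 fold change was -2.15 (SE 0.193; edgeR adjusted p 1.4e-10), opposite in sign to that of DHRS2. PCK2 (ENSG00000100889), the mitochondrial phosphoenolpyruvate carboxykinase of gluconeogenesis, was at 20.6, 23.8 and 23.7 CPM in control and 10.7, 10.8 and 11.5 CPM in knockout libraries. It fell by 1.05 on the log2 scale (SE 0.075; edgeR adjusted p 1.0e-12). NRL, a bZIP transcription factor known from photoreceptors, did not pass (0.45, SE 0.267; edgeR adjusted p 0.14), and DCAF11, a substrate receptor of a ubiquitin ligase, rose by 0.18 (SE 0.054; edgeR adjusted p 0.0064). CPNE6 had 0 to 3 counts per library and was not tested. The genes that lie next to the cluster thus moved both ways, and none by an amount near that of DHRS2.

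**Figure D2:**
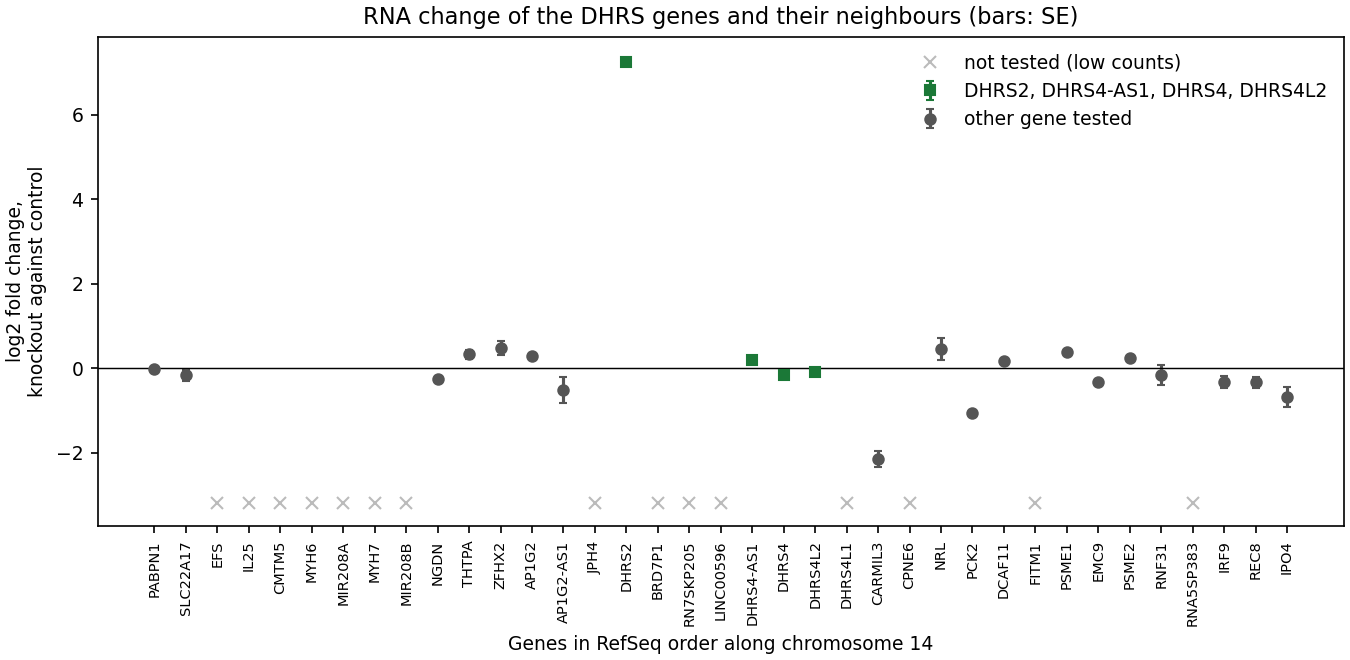
Log2 fold change of RNA (knockout against control, bars SE) for genes in RefSeq order around the cluster, with the 4 DHRS genes in green and other tested genes in grey. Crosses at the bottom mark genes too low to test and carry no value. DHRS2 stands at 7.25, the other tested genes lie between -2.15 and 0.49.

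Chromatin of the 500 kb window was described from 1 peak list per mark and genotype, so the counts have no replicate error and no test. The lists hold positions only, and no gene annotation of GRCh37 was used here, so no peak was assigned to a gene. A peak without a partner is one that shares no base with a peak of the same mark in the other genotype. H3K4me3, which marks active promoters, had 9 peaks over 9.7 kb in control and 13 peaks over 16.4 kb in knockout cells. The whole lists held 56854 peaks in control and 69459 in knockout cells. Of the knockout peaks 5 of 13 had no control partner, and of the control peaks 2 of 9 had no knockout partner, against 30.2% and 14.9% over the genome.

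The 5 knockout-only H3K4me3 peaks included a pair close together, chr14:24104113-24105226 and chr14:24105585-24112026. The latter, 6442 bp wide, was the widest H3K4me3 peak of the window in either genotype, where control peaks reached 1671 bp, and it was singled out after its width was seen. The nearest control H3K4me3 peak lay 22.29 kb before it. Over the genome 1444 of 69459 knockout H3K4me3 peaks (2.08%, 95% Wilson interval 1.98% to 2.19%, counting error only) were at least as wide. Among the 20955 knockout-only peaks there were 19 as wide, or 0.0907% (0.0581% to 0.142%), this peak included. A wider peak has more room to share a base with a control peak, so the overlap rule itself lowers this share. The other 3 knockout-only peaks of the window were 797 bp, 316 bp and 351 bp wide.

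No H3K27ac, H3K27me3 or H3K9me3 peak of either genotype overlapped the 6442 bp peak. The nearest H3K27ac peak lay 4.13 kb after it in control and 4.04 kb after it in knockout cells, and was present in both lists. The nearest H3K27me3 peak ended 7.41 kb before it in control and 7.62 kb before it in knockout cells. Of the 19 knockout-only H3K4me3 peaks of that width, 18 (94.7%) overlapped a knockout H3K27ac peak, and the peak at this locus was the exception. Without a limit on width, 33.2% (32.6% to 33.9%) of knockout-only H3K4me3 peaks overlapped a knockout H3K27ac peak, against 72.3% (71.9% to 72.7%) of those with a control partner.

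H3K9me3, the mark placed by SETDB1, had 30 peaks over 92.5 kb of the window in control and 18 peaks over 64.3 kb in knockout cells. The whole lists also held fewer peaks in knockout cells, 53949 against 102976 in control (1801 against 4217 on chromosome 14). Of the control peaks 14 of 30 had no knockout partner (60.0% over the genome, 46.4% on chromosome 14). Of the knockout peaks 1 of 18 had no control partner (56.3% over the genome, 40.3% on chromosome 14). These counts depend on the overlap required: at a reciprocal overlap of 50% they were 22 of 30 and 10 of 18. The share of control H3K9me3 length that was also covered in knockout cells was 45.9%: 42.5 kb were covered in both, 50.1 kb in control only and 21.8 kb in knockout only. The smaller cover here went with a larger cover over the genome, 344.1 Mb in control and 623.5 Mb in knockout cells. The control peak nearest the 6442 bp H3K4me3 peak, 9.05 kb before it, was 8802 bp wide (chr14:24087731-24096532) and overlapped a knockout peak of 1792 bp (chr14:24087989-24089780).

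H3K27me3, the Polycomb mark, covered more of the window than any other mark and was largely kept. It had 34 peaks over 204.6 kb in control and 26 peaks over 219.5 kb in knockout cells, and 91.2% of the control length was covered in both. The whole lists held 90822 peaks in control and 67482 in knockout cells. Without a partner were 6 of 34 control peaks (47.0% over the genome, 39.9% on chromosome 14) and 2 of 26 knockout peaks (29.0% and 28.7%). At a reciprocal overlap of 50% these were 14 of 34 and 6 of 26. The H3K9me3 of the window lay mostly inside it: 88.4% of H3K9me3 length in control and 98.8% in knockout cells was also under H3K27me3. H3K27me3 peaks covered 40.9% of the window in control and 43.9% in knockout cells. The same overlap over the genome was not computed, so whether it is particular to this window is not known.

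H3K27ac, a mark of active promoters and enhancers, had 9 peaks in control and 5 in knockout cells. The whole lists held 55740 peaks in control and 58908 in knockout cells. The 4 kept peaks included chr14:24422401-24423623 (control coordinates), which overlapped an H3K4me3 and a CTCF peak in both genotypes. Control-only were 5 of the 9 control peaks, against 26.9% over the genome and 6 of 20 in a window widened by 100 kb on each side. The 5 were all in the last part of the window, between chr14:24453742 and chr14:24551104. All 5 overlapped an H3K4me3 peak in control cells, and 3 of the 5 overlapped an H3K4me3 peak in knockout cells. Over the genome 14.6% of control-only H3K27ac peaks overlapped a knockout H3K4me3 peak. That share was not limited to peaks with H3K4me3 in control cells, so it is not a like comparison. The widest of the 5, chr14:24501092-24504243, overlapped a control-only H3K4me3 peak, chr14:24501467-24502446. The 1 knockout-only H3K27ac peak, chr14:24082653-24083672, overlapped an H3K4me3 peak present in both genotypes (31.3% of knockout H3K27ac peaks had no partner over the genome).

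CTCF, which binds at loop anchors and domain boundaries, had 6 peaks in control and 13 in knockout cells. The whole lists also held more peaks in knockout cells, 34474 against 23903 in control. Without a partner were 1 of 6 control peaks (44.1% over the genome) and 8 of 13 knockout peaks (61.4%), so the knockout-only share was near that of the genome. The CTCF peak nearest the 6442 bp H3K4me3 peak, was present in both genotypes, 4.09 kb before it in control (chr14:24101191-24101492) and 3.92 kb before it in knockout cells.

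**Figure D3:**
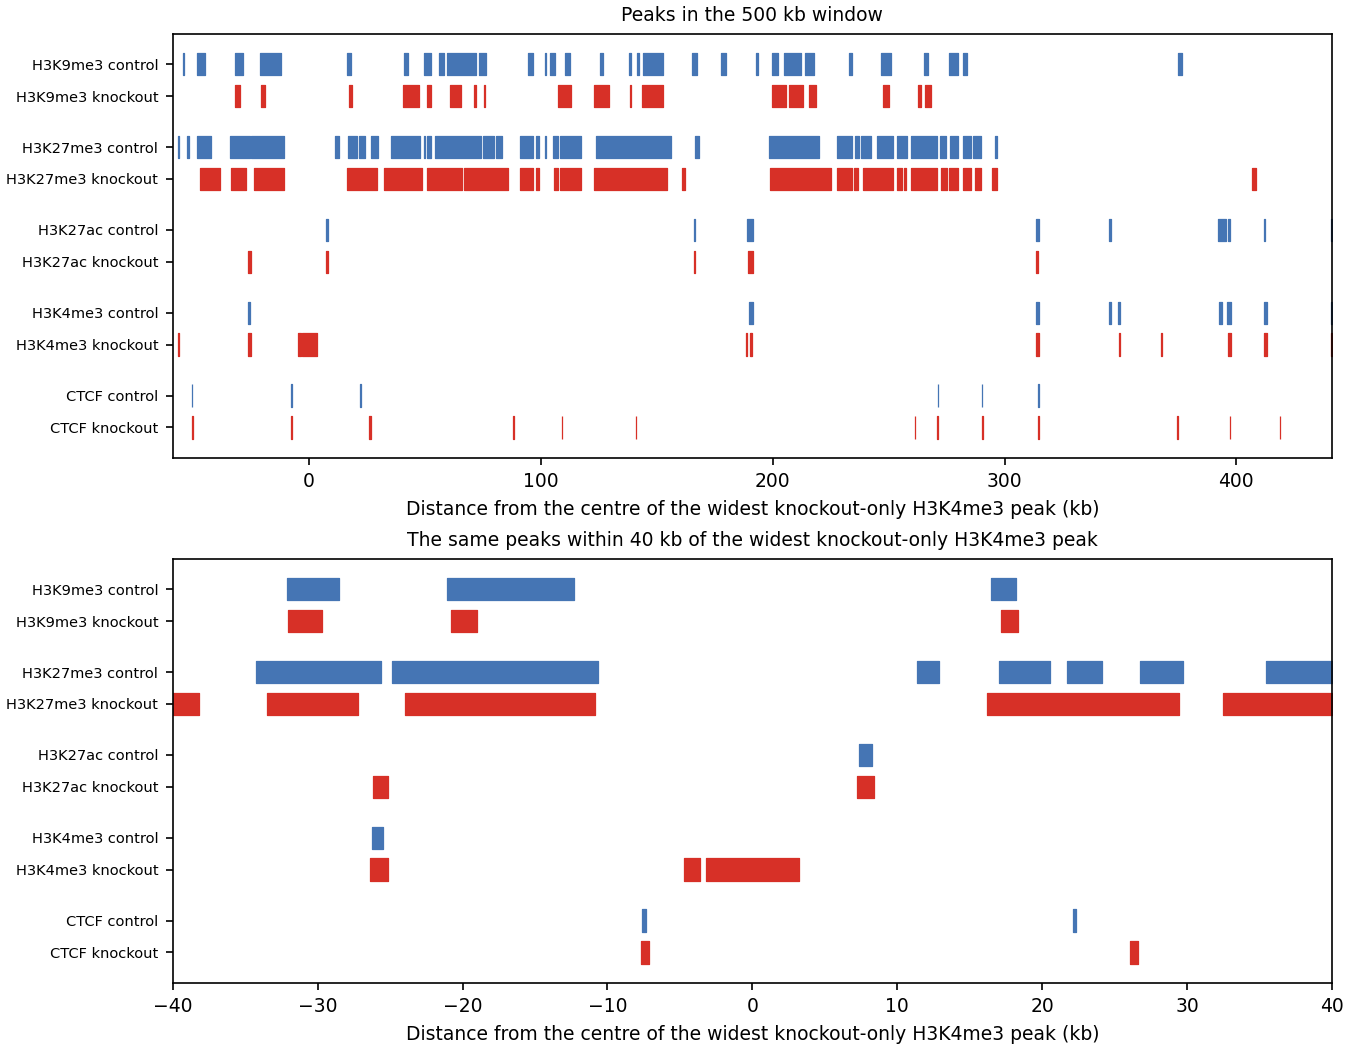
Peaks of 5 marks in control (blue) and knockout (red) cells, by distance in kb from the centre of the widest knockout-only H3K4me3 peak, over the 500 kb window (top) and within 40 kb (bottom). The 6442 bp H3K4me3 peak at 0 has no control counterpart and no H3K27ac peak under it, and the control-only H3K27ac peaks lie at the right end of the window.

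Hi-C was used to ask whether the compartment score of the locus, in 100 kb bins, differed between genotypes. The score is the authors' own, its method and sign convention are not given in the sources used here, and positive values are not named as either compartment. Of 6 bins that touch the window 5 had a value, and all 5 were positive in both genotypes. The bin that holds the 6442 bp H3K4me3 peak, chr14:24100001-24200000, scored 0.469 and 0.622 in the 2 control libraries and 0.551 and 0.560 in the 2 knockout libraries. Its knockout values lay between the control values, with a difference of 0.010 (SE 0.053; limma adjusted p 0.88).

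The next bin, chr14:24200001-24300000, scored 0.663 and 0.713 in control and 0.569 and 0.544 in knockout libraries. It fell by 0.131 (SE 0.042; limma adjusted p 0.021), the 1 bin of 5 that passed, against 58.8% of 26496 bins over the genome (37.3% lower and 21.6% higher). It no longer passed when the second control library (-0.106, limma adjusted p 0.080), the first knockout library (-0.144, 0.071) or the second knockout library (-0.119, 0.13) was left out. The bins at chr14:24000001-24100000, chr14:24300001-24400000 and chr14:24500001-24600000 had differences of -0.078, 0.0023 and -0.030, with limma adjusted p of 0.18, 0.97 and 0.61. The first of these passed without the second control library (-0.126, limma adjusted p 0.046). A change of sign between genotypes, found in 11.8% of bins over the genome, occurred in none of the 5. It occurred outside the window at chr14:24900001-25000000, where the mean score went from 0.255 to -0.301 (limma adjusted p 6.8e-06).

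Topologically associating domains were listed once per genotype, on a 20 kb grid. A 380 kb domain, chr14:24040001-24420000, held most of the window in both lists with the same edges, and a 260 kb domain, chr14:24520001-24780000, held its end, again with the same edges. Both boundaries inside the window were thus in the same 20 kb bin in control and knockout cells, and the stretch between them was in no listed domain. The share of boundaries kept over the genome was not computed, so this is not called particular to the locus. The 6442 bp H3K4me3 peak lay in the 380 kb domain, and of the 5 control-only H3K27ac peaks 3 lay in the stretch between the domains and 2 in the 260 kb domain.

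**Figure D4:**
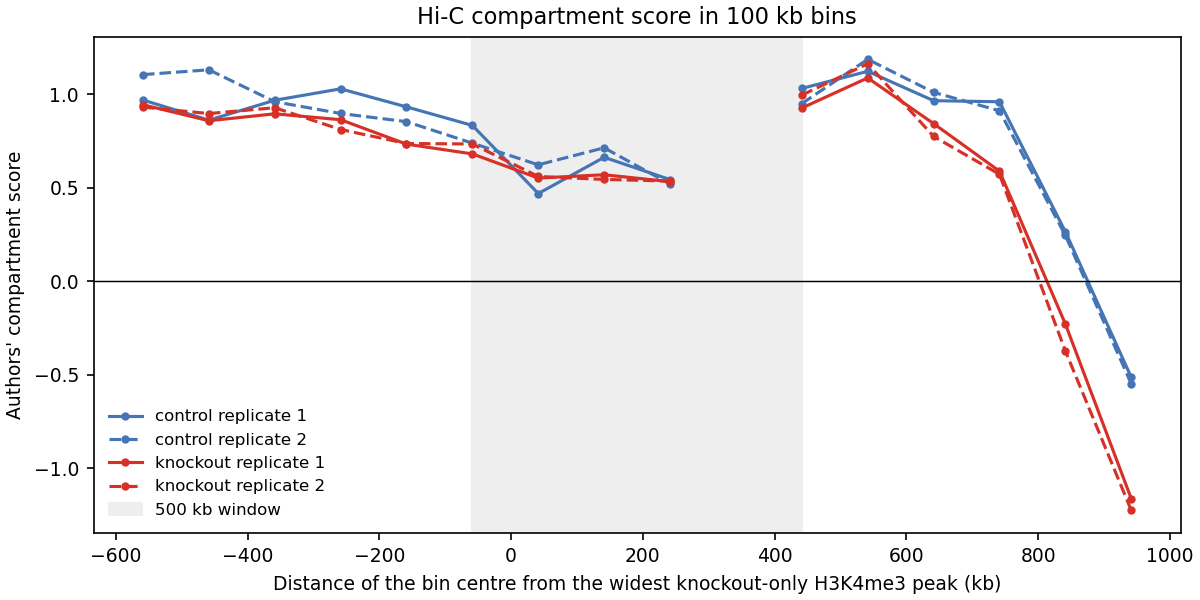
The authors' Hi-C compartment score per 100 kb bin in 2 control (blue) and 2 knockout (red) libraries, by distance of the bin centre from the widest knockout-only H3K4me3 peak, with the 500 kb window in grey. Scores in the window lie between 0.469 and 1.03 in every library, and the break in the lines is a bin with no value.

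The rest of the enzyme family was examined to see where the cluster stands in it. Of 64 SDR genes listed, 61 had a count and 50 were tested, with 19 higher, 11 lower and 20 not passing edgeR's test (38% and 22%, against 32.8% and 30.0% of all genes). The list holds DHRS2, DHRS4 and DHRS4L2, and without them 18 of 47 were higher and 11 lower, with a median log2 fold change of 0.12 (0.0038 over all genes) and a largest rise of 1.86. The largest rises after DHRS2 were SDR16C5, an epidermal retinol dehydrogenase, from 0.738 ± 0.17 to 2.70 ± 0.33 CPM (SD, n = 3 each), and SDR42E1, from 3.21 ± 0.30 to 9.85 ± 0.25 CPM (SD, n = 3 each). Their log2 fold changes were 1.86 (SE 0.205; edgeR adjusted p 6.9e-09) and 1.63 (SE 0.107; edgeR adjusted p 2.1e-13).

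RDH10, a retinol dehydrogenase of embryonic retinoic acid synthesis, rose by 0.85 on the log2 scale, from 74.1 to 134 CPM. KDSR, which makes dihydrosphingosine in sphingolipid synthesis, rose by 0.66, from 25.6 to 40.3 CPM, and DHRS13 rose by 0.66, from 1.92 to 3.05 CPM. Among those that fell, CBR3, a carbonyl reductase, fell by 1.25 on the log2 scale, from 1.70 to 0.721 CPM. PECR, a peroxisomal enoyl-CoA reductase, fell by 0.70, from 18.7 to 11.5 CPM. FAR1, the peroxisomal fatty acyl-CoA reductase of ether lipid synthesis, fell by 0.51 and SPR, the sepiapterin reductase of tetrahydrobiopterin synthesis, by 0.43. RDH14 fell by 0.31 and HSD17B11 by 0.27. Adjusted p in edgeR's quasi-likelihood test for these 9 genes ran from 1.4e-15 for RDH10 to 0.00077 for RDH14. In all 9 the genotypes did not overlap.

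**Figure D5:**
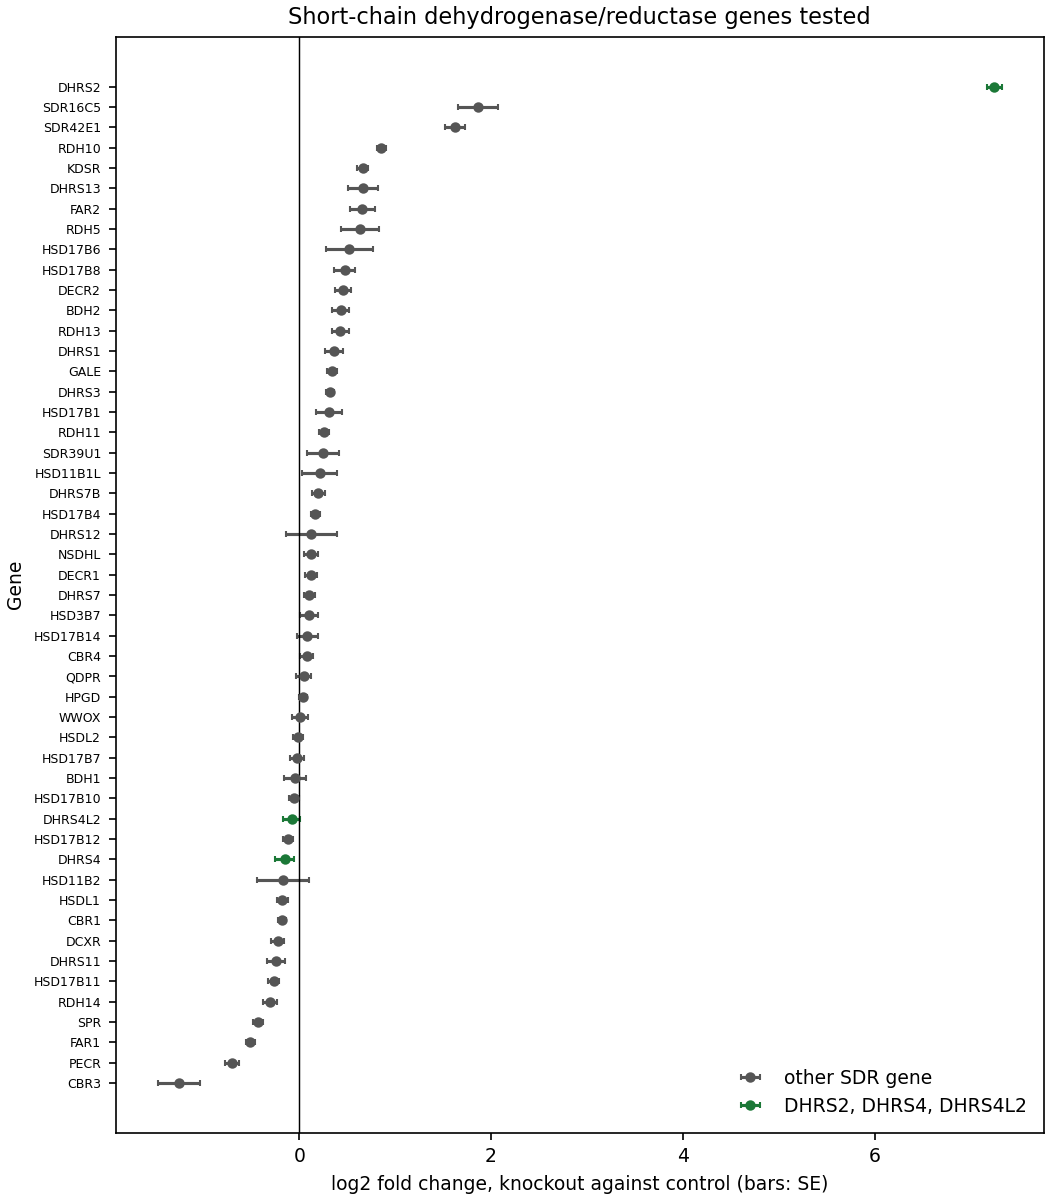
Log2 fold change of RNA (knockout against control, bars SE) for the 50 SDR genes tested, in order, with DHRS2, DHRS4 and DHRS4L2 in green. DHRS2 is at 7.25, the other genes lie between -1.25 and 1.86, and DHRS4 and DHRS4L2 stand among those near 0.

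Retinoid metabolism and its receptors, the pathway in which DHRS4 is a retinal reductase, were listed as 35 genes, of which 24 were tested. Of these 12 were higher, 6 lower and 6 did not pass, with 3 at least 2-fold in each direction and a median log2 fold change of 0.18 (0.0038 over all genes). That is 50% higher and 25% lower, against 32.8% and 30.0% of all genes. RARG, a retinoic acid receptor, rose by 0.89, from 21.7 to 40.1 CPM, and the carotenoid oxygenases BCO2 and BCO1 rose by 1.11 and 0.65. SDR16C5 and RDH10, given above, are on this list too.

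Lower in knockout cells were the secreted carrier RBP4 (2.87 to 1.13 CPM, log2 fold change -1.46), the retinoic acid binding protein CRABP2 (1.51 to 0.653 CPM, -1.10), the receptor RARB (28.8 to 15.9 CPM, -0.85) and the retinal oxidase ALDH1A3 (13.99 to 8.81 CPM, -0.65), beside RDH14. CYP26A1, which degrades retinoic acid, was at 0.552, 0.662 and 1.68 CPM in control and 0.349, 0.406 and 0.446 CPM in knockout libraries (-1.36; edgeR adjusted p 0.0064). The third control library stood above the others, and without it the log2 fold change was -0.58, with an edgeR adjusted p of 0.20.

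The partners reported for DHRS4-AS1 and related methyltransferases were listed as 10 genes, all tested. Of these 7 were lower and 2 higher, or 70% and 20% against 30.0% and 32.8% of all genes, with a median log2 fold change of -0.21 and none at least 2-fold. DNMT3B, a DNA methyltransferase, fell by 0.59 on the log2 scale, from 11.3 to 7.49 CPM, and EED, a Polycomb subunit, by 0.39, from 22.5 to 17.1 CPM. DNMT3A fell by 0.30, EZH2 by 0.26 (35.6 to 29.7 CPM), SUZ12 by 0.22 and DNMT1 by 0.17. EHMT2 (G9a) fell by 0.20, from 22.7 to 19.5 CPM, with an edgeR adjusted p of 0.021 and genotypes that overlapped. WIZ and EHMT1, which act in the same H3K9 methyltransferase complex as EHMT2, rose by 0.40 and 0.22, and EZH1 did not pass (0.07; edgeR adjusted p 0.34).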

How the data were processed

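The deposited gene table holds whole-number counts per gene. Per the labels' protocols, the kit for these total RNA libraries was a stranded one. STAR 2.6.1c, edgeR 3.30.0, Bowtie2 2.2.3, SAMtools 1.5, Picard, MACS2 and the build hg19 are named in the submitters' processing notes, without role or order. The counter, its strand setting, peak thresholds and pooling of libraries are not given in the sources used here. The deposited peak and TAD lists hold positions, and the deposited compartment score is signed, per 100 kb bin and replicate. No per-sample column went unmapped (0 columns). The knockout H3K4me3 libraries, whose titles lack a digit of the mark, were grouped by description.

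The 4 genes, the window and the gene lists were chosen with earlier results of these data known. Of 62486 gene rows 58642 (93.8%) matched a symbol. Counts of 17767 genes kept by filterByExpr were fitted with the robust quasi-likelihood test of edgeR 4.0.16 in R 4.3.3, after TMM scaling, with genotype as sole term, with Benjamini-Hochberg adjustment at 0.05. Every pair of libraries differed by more than sampling noise, and all were kept apart. Compartment scores were fitted with limma 3.58.1 over 26496 bins. Peaks were compared in Python 3.11.15 (numpy 2.4.6, pandas 2.3.3) at an overlap of at least 1 bp, and promoters aligned with Biopython 1.88. Both fits were tested on simulated data.

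Named were the 4 genes, SETDB1, the 4 tested genes nearest the cluster on each side and any of the stretch past 2-fold, up to 6 genes each way per list among those that passed without overlap, and the nearest genes by distance. A gene of the retinoid list that the rule names is not reported here. JPH4, CPNE6, DHRS4L1, the 3 loci between the genes, EZH1, EHMT2 and the 6442 bp peak were added after their values were seen. RefSeq order (GRCh38.p14) gave names and order only. Inputs were not used here. Alternatives were other scalings, filters and DESeq2 1.42.0, a replicate block, each replicate left out, and other overlap and window rules.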

Additional observations from a re-analysis of the deposited data

How the results depend on the processing

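Of 714 values recomputed under alternatives, 671 were counted as keeping their direction and their side of the threshold or as moving little. These include the median log2 fold change of all genes tested, which was counted as kept without a comparison. That median was 0.0038 in the main fit, -0.031 with upper quartile scaling and 0.034 with library size only. DHRS2 ranged from a log2 fold change of 7.15 to 7.38. DHRS4 and DHRS4L2 stayed below 0 and did not pass in any (adjusted p at least 0.100 and 0.27 in edgeR or DESeq2). DHRS4-AS1 passed under library size only (0.22, edgeR adjusted p 0.027), with no filter (0.23, 0.020) and with a replicate block (0.21, 0.016), and ranged from 0.13 to 0.30 with a library left out. It did not pass with upper quartile scaling (edgeR adjusted p 0.12), DESeq2 (adjusted p 0.12) or a mean CPM of at least 1 (edgeR adjusted p 0.069). Correlations of deviations between genotypes were 0.211, 0.134 and 0.0709 for same-numbered RNA libraries and -0.22 to 0.114 for differently numbered ones. The same-numbered value was the highest for each knockout library, so a weak pairing by replicate number cannot be dismissed. For replicate 1 of Hi-C the correlation was -0.0018. The block raised the RNA calls from 11157 to 11655 and changed no other call reported here.

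The compartment differences reversed with scaled columns at chr14:24100001-24200000 (-0.029) and chr14:24300001-24400000 (-0.038). With 1 library left out, the 5 bins, in order, ranged from -0.126 to -0.031, -0.067 to 0.087, -0.157 to -0.106, -0.0096 to 0.014 and -0.070 to 0.011. Peaks without a partner at a reciprocal overlap of 50% numbered 22 and 10 for H3K9me3 and 14 and 6 for H3K27me3 (control, knockout). In a window narrowed by 100 kb on each side few peaks of the last 3 marks named here remained. Without a partner there (control, knockout) were 3 of 25 and 1 of 21 H3K27me3 peaks and 0 of 3 and 0 of 3 H3K27ac peaks. For H3K4me3 these were 0 of 2 and 1 of 4, and for CTCF 0 of 3 and 4 of 7. ZFHX2 and THTPA each lost the call in at least 1 alternative. Near-identical copies, unreplicated peak lists and 2 Hi-C libraries per genotype limit these values.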
